A study of Mus musculus with 165 samples.

Results

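The 3 RNA-Seq libraries of PUER cells at 120h of differentiation in GCSF (GCSF-OHT 120h) were compared with the mean of the time points on either side, GCSF-OHT 112h (2 libraries) and GCSF-OHT 128h (3 libraries). They belong to a time course of 78 GCSF-OHT libraries, 81 IL3-OHT libraries and 6 libraries of undifferentiated cells or GCSF 0h, and were chosen by the cytokine, treatment and time in their labels. PUER cells are a line of myeloid progenitors made from mice without PU.1. The study names fetal liver as their source in its introduction and bone marrow in its results. Their only PU.1 protein is a fusion with the hormone-binding part of the estrogen receptor, which 4-hydroxy-tamoxifen (OHT) switches on. In every GCSF-OHT group the cells were kept in granulocyte colony-stimulating factor (GCSF) in place of IL3 before and during 100 nM OHT, the neutrophil differentiation of the study. In the IL3-OHT groups, used here as the second condition at the same hours (3 libraries each at 112h, 120h and 128h), they stayed in IL3 and received 200 nM OHT, the macrophage differentiation.

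All libraries come from this 1 line, and the study describes the replicates as biological replicates. Each time point was grown on a plate of its own, part of the medium was replaced and fresh OHT added at 88h, and 112h, 120h and 128h therefore lie 24, 32 and 40 h after that addition. The labels also set 120h apart in another way. The 6 libraries of 120h, 3 in GCSF and 3 in IL3, carry a prefix in their library names that no other library has, so the time point, its plate and the prefix cannot be told apart, in any comparison of 120h given here. The 8 GCSF libraries held 15290565 to 22730114 reads on genes, and the floor, a count of 3 reads, came to 2.96 to 4.26 on the normalized scale (counting error only).

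Cells that divide must make ribosomes, copy DNA and build membrane. The factors that assemble ribosomes in the nucleolus are switched on together with growth, a set often read through MYC and its E-box. The enzymes of cholesterol synthesis are driven by SREBP2 when sterol is low, and glycolytic enzymes by HIF1 when oxygen is low. Neutrophils are known for their reliance on glycolysis, and a granulocyte fills its primary granules early and stops dividing as it matures.

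GCSF-OHT 120h stood apart from both neighbours in growth and metabolic genes and hardly at all in the neutrophil marker genes. Ribosome assembly factors, DNA replication genes and mitochondrially encoded transcripts rose, while cholesterol synthesis genes, glycolytic enzymes and hypoxia response genes fell. Of 17414 genes tested, 356 (2.04%) were differentially expressed genes (DEGs), 0.902% of the tested genes being higher and 1.14% (199 genes) lower than the mean of 112h and 128h. DEGs were called at an adjusted p under 0.05 (limma, Benjamini-Hochberg) and an absolute log2 fold change over 0.58. Most changes were smaller, and with the p threshold alone 1907 genes (11%) rose and 1950 (11.2%) fell, the sense in which these verbs are used here. All fold changes are on the scale of log2(normalized count + 1), and those of low genes are understated.

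The neighbours themselves differed little. Between 128h and 112h only 27 genes (0.155%) were DEGs, 14 higher and 13 lower at 128h (9 and 14 under upper-quartile scaling, and 9 in all without GCSF-OHT 112h replicate 2). Against 112h alone, 261 genes (1.5%) were DEGs at 120h, and against 128h alone 404 (2.32%). These contrasts share the 120h libraries, and 107 genes (0.614%) were DEGs in the same direction in both, 43 higher and 64 lower at 120h. Without GCSF-OHT 112h replicate 2 there were 50 such genes, as there were with a smooth of transcript GC content removed. The 3 libraries of 120h lay above all 5 neighbouring libraries in 1955 genes (11.2%) and below all 5 in 1966 (11.3%). Over the 8 libraries, 59 of the higher DEGs (37.6%) and 86 of the lower ones (43.2%) had a mean normalized count of at least 50, and the others lay below it.

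The same contrast was fitted at each of the 16 GCSF time points that have a neighbour 8 h before and 8 h after. By the number of DEGs, 120h ranked second, after 96h with 813 and just ahead of 88h with 350, 144h with 322 and 72h with 243. The smallest count was 5, at 56h. With the p threshold alone, 120h had the most genes, 3857, and 96h had 3748. Neighbouring contrasts share libraries, so these counts are not independent of one another. The rank ran from 2 to 5 over the processing alternatives.

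**Figure D1:**
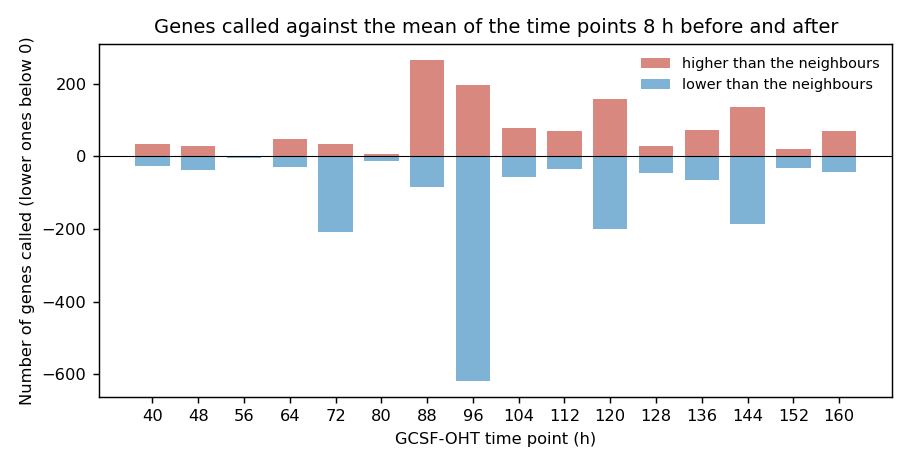
Number of genes called as DEGs at each GCSF-OHT time point from 40h to 160h (horizontal axis, hours) against the mean of the time points 8 h before and after, with higher genes above 0 and lower genes below. The 2 bars of 120h add up to 356 genes, and only those of 96h, with 813, add up to more.

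The ribosome biogenesis list holds factors that process ribosomal RNA and assemble the subunits. Of its 40 members, 37 rose and none fell, with a median log2 fold change of 0.31 against 0.00 over all genes tested, where 11% rose. The 120h libraries lay above all 5 neighbours for 29 of the 40. Only 4 members passed the fold threshold as DEGs. Dkc1, the dyskerin pseudouridine synthase of box H/ACA particles and of telomerase, moved most.

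Dkc1 (ENSMUSG00000031403, chromosome X from 75095854 to 75109777, GRCm38) had normalized counts of 936, 925 and 939 at 120h, against 615 and 574 at 112h and 511, 474 and 458 at 128h. No library of 120h overlapped with a neighbour, and the spread within 120h was small beside the gap. The log2 fold change was 0.80 (standard error 0.08, adjusted p = 5.76e-13, limma). Gnl3, the nucleolar GTPase nucleostemin, read 667, 776 and 695 at 120h, while 112h gave 474 and 406, and 128h gave 375, 423 and 362. Its log2 fold change was 0.79 (standard error 0.08, adjusted p = 5.76e-13, limma), again with no overlap. Nop58, a core protein of box C/D particles, rose by 0.68 and Noc3l, which acts in large-subunit assembly, by 0.61 on the log2 scale.

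Several members that rose carry the palindrome CACGTG, the E-box, close to their start. A promoter here is 250 bases before to 50 after the start. The E-box was found in that of 8 of the 36 members with a promoter in the set searched (22.2%). These were Ltv1, Mybbp1a, Nop2, Pes1, Tsr1, Utp20, Utp4 and Wdr43. All of these but Pes1 rose. Over 27025 genes the share was 7.24%, and over the tested genes among them 9.55%. Of the 8, Utp20 (log2 fold change 0.56), Tsr1 (0.51) and Ltv1 (0.50), all factors of small-subunit assembly, are shown with the E-box in capitals, 5′ to 3′, from RefSeq on GRCm38.p6. Neither a site in use nor a cause is shown by such a match.
Utp20 (chr10:88826765-88827064, minus strand): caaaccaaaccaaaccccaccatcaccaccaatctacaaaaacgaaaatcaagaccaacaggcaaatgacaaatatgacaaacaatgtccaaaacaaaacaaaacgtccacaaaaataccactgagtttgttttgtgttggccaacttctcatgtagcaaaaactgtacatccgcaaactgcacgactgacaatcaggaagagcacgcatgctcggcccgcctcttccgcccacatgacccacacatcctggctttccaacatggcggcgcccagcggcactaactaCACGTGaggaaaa
Tsr1 (chr11:74897830-74898129, plus strand): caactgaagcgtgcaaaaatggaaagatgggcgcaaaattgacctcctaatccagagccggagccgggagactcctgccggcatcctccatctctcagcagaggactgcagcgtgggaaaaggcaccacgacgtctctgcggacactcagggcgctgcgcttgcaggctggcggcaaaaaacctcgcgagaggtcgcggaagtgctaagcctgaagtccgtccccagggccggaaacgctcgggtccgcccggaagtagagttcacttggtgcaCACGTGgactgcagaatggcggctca
Ltv1 (chr10:13193088-13193387, minus strand): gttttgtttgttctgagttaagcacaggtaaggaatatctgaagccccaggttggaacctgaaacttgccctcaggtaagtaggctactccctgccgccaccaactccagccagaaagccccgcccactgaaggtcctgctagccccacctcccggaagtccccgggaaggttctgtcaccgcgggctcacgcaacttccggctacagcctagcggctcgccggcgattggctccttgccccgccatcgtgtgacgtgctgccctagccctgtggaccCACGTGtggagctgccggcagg

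Utp20, the first of these, read 750, 757 and 646 at 120h. Its neighbours were all lower, with 508 and 459 at 112h and 453 to 531 at 128h (adjusted p = 2.54e-08, limma).

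DNA replication genes rose to a smaller extent. Of 48 tested, 27 rose and none fell, with a median of 0.20 on the log2 scale. Against the midpoint of 112h and 128h, the median over the list was 0.44 and 0.53 in the 96h libraries and 0.22 to 0.34 at 104h. It was 0.16 to 0.24 at 120h. Pola1, the catalytic subunit of DNA polymerase alpha that starts new strands, read 649 and 713 at 112h, then 1070, 1097 and 1069 at 120h, then 663, 697 and 645 at 128h, with no overlap. Its log2 fold change was 0.68 (standard error 0.09, adjusted p = 6.57e-09, limma). Ccne2, the cyclin E2 of S-phase entry, rose by 0.70, from 527 to 678 in the neighbours to 914 to 1125 at 120h. These were the only DEGs of the list.

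Genes of mitosis did not move with those of replication. Of 48 mitosis genes, 3 rose and 3 fell (median 0.03). Replication-dependent histone genes, whose transcripts lack poly(A) tails for the most part, had a median of -0.34. Of 62, 9 fell (14.5%) and none rose, a share near the 11.2% of all genes that fell. The 6 histone DEGs were low, such as H3c15 at 25.1, 16.6 and 18.2 at 120h against 35.3 to 65.9 in the neighbours, and histone copies are so alike that their counts are uncertain. H3c15 was no DEG without GCSF-OHT 112h replicate 1 or 2, 120h replicate 2 or 3 or 128h replicate 3 (adjusted p from 0.0519 to 0.142, limma). With a smooth of transcript GC content removed from each library, 5 histone genes fell. Dctd, a deaminase that supplies thymidylate precursors and is no member of these lists, read 103.9, 102.4 and 102.3 at 120h. Its neighbours read 54.1 and 59.7 (112h) and 38.6, 71 and 46.3 (128h) (log2 fold change 0.93, adjusted p = 1.13e-08, limma). This was the largest rise among genes, unnamed models apart, that averaged at least 50 normalized counts, were DEGs against each neighbour and did not overlap with them.

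Cholesterol synthesis fell broadly, from the mevalonate steps to the sterol ring. Of 37 genes of cholesterol synthesis and uptake, 26 fell and none rose, with a median of -0.33. Of all genes 11.2% fell, and 17.5% of those with a mean of at least 50. The 4 DEGs were all enzymes of the pathway. Mvd, the decarboxylase that makes isopentenyl pyrophosphate (ENSMUSG00000006517, chromosome 8 from 122433601 to 122443422, GRCm38), read 907, 853 and 928 at 120h, compared with 1385 and 1298 at 112h, then 1820, 1562 and 1889 at 128h. The groups did not overlap, and the log2 fold change was -0.77 (standard error 0.09, adjusted p = 3.44e-11, limma).

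Lss, lanosterol synthase, which closes the sterol rings, read 1044, 906 and 1152 at 120h. All 5 neighbours were higher, with 1476 and 1424 at 112h and 1751 to 2077 at 128h (log2 fold change -0.69, adjusted p = 1.46e-10, limma). Pmvk fell by 0.67 and Mvk by 0.59 on the log2 scale, 2 kinases of the mevalonate pathway, and Mvk lay at the fold threshold. Sqle, squalene epoxidase, fell by 0.41 on the log2 scale.

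The direction held against each neighbour, although the list was not level between them. The median over the list in the 3 libraries of 120h lay between -0.39 and -0.32 from the midpoint of the neighbours, where the 112h libraries lay at -0.10 and -0.14 and the 128h libraries at 0.08 to 0.19. A sterol element of the form TCACNCCAC was found in 1 of 25 list promoters (4%) and in 1.22% of all promoters. It lies in the promoter of Hmgcs1, HMG-CoA synthase, the only 1 of these 25 in which this strict form was present, and is given here in capitals. No promoter of the other list members was searched.
Hmgcs1 (chr13:119690101-119690400, plus strand): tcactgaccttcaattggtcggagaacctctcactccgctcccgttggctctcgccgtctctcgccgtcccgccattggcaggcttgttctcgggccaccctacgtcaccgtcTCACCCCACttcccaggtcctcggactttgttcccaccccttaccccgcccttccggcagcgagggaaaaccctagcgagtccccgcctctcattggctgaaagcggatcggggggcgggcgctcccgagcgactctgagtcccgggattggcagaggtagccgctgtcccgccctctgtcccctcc

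Hmgcs1 itself fell by 0.27 (log2, adjusted p = 6.07e-04, limma), with 4632, 4840 and 5242 normalized counts at 120h. That is below the 6662 to 7042 of 128h, but it overlaps with 5371 and 4826 at 112h.

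Glycolytic enzymes fell as well. Of 22, 14 fell and none rose, and the median was -0.40, below that of the cholesterol genes. The 3 libraries of 120h lay below all 5 neighbours for 15 enzymes, beside 11.3% of all genes. Aldoc, aldolase C (ENSMUSG00000017390, chromosome 11 from 78322968 to 78327781, GRCm38), read 219.7, 171.5 and 220 at 120h, while 112h gave 352 and 351, and 128h gave 385, 345 and 305. These groups did not overlap, and the log2 fold change was -0.78 (standard error 0.15, adjusted p = 3.53e-05, limma). Hk1, hexokinase 1, which traps glucose in the cell, read 6932, 7049 and 7406 at 120h and 10136 to 11326 in the neighbours, a fall of 0.58 that lies at the fold threshold. Even Gapdh, often taken as a reference gene, fell by 0.44 (log2, adjusted p = 1.34e-05, limma).

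The motif TACGTG, a form of the hypoxia response element, was found in the promoters of 3 of 21 glycolysis genes (14.3%), Aldoc, Gapdh and Pgam1, and in 3.16% of all promoters, on either strand. It shares the letters ACGTG with the E-box without being one. The promoters of Aldoc and Gapdh are given because both genes fell, and the capitals mark the element as read on the opposite strand.
Aldoc (chr11:78322823-78323122, plus strand): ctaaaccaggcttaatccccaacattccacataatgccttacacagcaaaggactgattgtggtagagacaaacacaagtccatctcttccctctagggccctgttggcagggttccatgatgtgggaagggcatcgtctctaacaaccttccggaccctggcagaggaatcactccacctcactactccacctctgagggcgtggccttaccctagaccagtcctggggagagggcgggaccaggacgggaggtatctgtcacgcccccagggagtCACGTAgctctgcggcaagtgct
Gapdh (chr6:125165724-125166023, minus strand): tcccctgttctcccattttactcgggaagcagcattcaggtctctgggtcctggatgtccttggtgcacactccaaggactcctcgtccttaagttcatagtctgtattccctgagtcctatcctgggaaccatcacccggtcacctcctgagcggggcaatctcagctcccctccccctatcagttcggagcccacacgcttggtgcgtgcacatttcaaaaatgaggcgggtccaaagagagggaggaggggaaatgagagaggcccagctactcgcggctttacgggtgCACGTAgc

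Hypoxia response genes moved with glycolysis. Of 21 genes, 10 fell and 1 rose, with a median of -0.30. For 18 the 3 libraries of 120h lay below all 5 neighbours, beside 11.3% of all genes. P4ha2, a collagen prolyl hydroxylase subunit, read 926, 1014 and 1134 at 120h against 1623 to 1820 in the neighbours (log2 fold change -0.73, adjusted p = 8.30e-05, limma). Car9, the membrane carbonic anhydrase that HIF1 induces, read 2145, 2387 and 2709 against 3454 to 3989 and fell by 0.65. Neither gene overlapped with its neighbours. Which of these genes respond to oxygen in PUER cells was not tested.

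**Figure D2:**
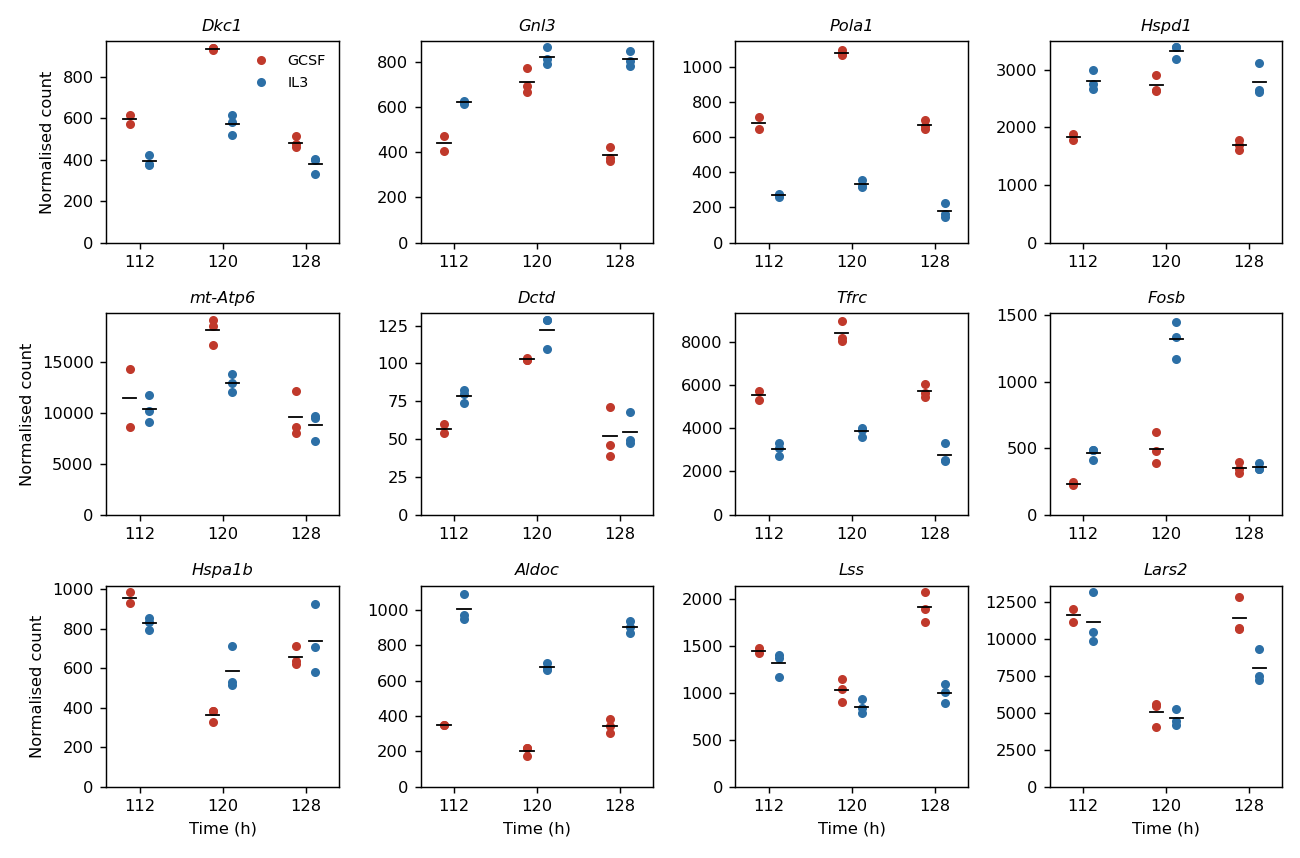
Normalized counts (vertical axes, each from 0) of 12 genes in every library at 112h, 120h and 128h (horizontal axes, hours), in GCSF (red) and IL3 (blue), with black bars for group means. In GCSF, Dkc1, Gnl3, Pola1, Hspd1, mt-Atp6, Dctd and Tfrc lie above both neighbours at 120h, Hspa1b, Aldoc, Lss and Lars2 lie below, and Fosb overlaps with 128h.

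The transcripts encoded in mitochondrial DNA rose as a set. Of 13, 10 rose and none fell, with a median of 0.54, and 5 were DEGs. Their share of the reads was 1.49% to 1.65% at 120h and 1.05% to 1.18% in the neighbours (exact two-sided permutation test of 3 against 5 libraries, p = 0.0357, the smallest it can give, adjusted p = 0.0857 over 12 such tests). mt-Nd4, a complex I subunit, rose by 0.64, from 15225 to 17831 in the neighbours to 24822 to 28382 at 120h. mt-Atp6, an ATP synthase subunit, rose by 0.83, but its neighbours were spread from 8029 to 14304. Nuclear copies of mitochondrial genes are nearly identical in sequence, so the reads of single genes are uncertain. The set also has the lowest GC content of the lists (median 37.1%), and with the GC smooth removed 3 genes rose and the median was 0.11.

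The nuclear genes of the respiratory chain did not follow. Of 76, 9 rose and 5 fell, and the median was 0.01, with its sign turned under upper-quartile scaling. Some nuclear genes for other mitochondrial functions moved further. Lars2, the mitochondrial leucyl-tRNA synthetase (ENSMUSG00000035202, chromosome 9 from 123366927 to 123462666, GRCm38), had the largest fall among genes chosen in the same way as Dctd. It read 12049 and 11173 at 112h, then 5479, 5608 and 4013 at 120h, then 12850, 10757 and 10662 at 128h, without overlap (log2 fold change -1.21, standard error 0.23, adjusted p = 2.84e-05, limma). Lars2 also varied at GCSF time points whose contrasts share no library with that of 120h, from -0.99 at 72h to 0.83 at 64h against their neighbours. Ndufaf4, a complex I assembly factor, and Gcsh, the H protein of glycine cleavage, each rose by 0.80.

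Heat shock proteins moved in both directions. Of 24, 12 rose and 4 fell (median 0.15). Hspd1, the mitochondrial chaperonin HSP60, read 2643, 2906 and 2629 at 120h, compared with 1888 and 1779 at 112h, then 1697, 1782 and 1604 at 128h, and rose by 0.63 (standard error 0.07, adjusted p = 1.33e-12, limma). The stress-inducible HSP70 genes did the opposite. Hspa1b read 385, 329 and 381 at 120h, while 112h gave 984 and 929, and 128h gave 637, 714 and 622, a fall of 1.12 in log2 terms (adjusted p = 5.22e-10, limma). Hspa1a fell by 1.07, and reads may be split between these near-identical copies.

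In the endoplasmic reticulum, 11 of 22 chaperones rose and 1 fell (median 0.11), none as a DEG. Hspa5, the chaperone BiP, read 15291, 15285 and 15177 at 120h and 11548 to 13259 in the neighbours (log2 fold change 0.32, adjusted p = 1.02e-09, limma). P4hb, protein disulfide isomerase, was the member that fell, by 0.34.

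Ribosomal protein genes, which encode the ribosome itself, did not rise with the assembly factors. Of 79, 16 fell and 1 rose (median -0.07), and with the GC smooth removed 3 fell and 2 rose. Rpsa, which had one of the highest levels, read 31379, 30051 and 31762 at 120h and 32332 to 37828 in the neighbours and fell by 0.17. Iron handling held 5 genes that rose and 3 that fell of 21, and among those that rose was Tfrc, the transferrin receptor, with 8036, 8978 and 8175 at 120h against 5295 to 6037 (log2 fold change 0.58, at the fold threshold, adjusted p = 1.13e-08, limma).

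Some signalling genes fell, fewer of them once the GC smooth was removed. Of 32 immediate-early genes, 9 fell and 3 rose (median -0.18). Of all genes 11.2% fell, and 17.5% of those with a mean of at least 50. With the GC smooth removed, 4 of the immediate-early genes fell and 3 rose. Of 17 STAT targets 7 fell and none rose (median -0.22), and 5 fell with the GC smooth removed. Of 18 NF-kB genes 6 fell, but none with the GC smooth removed. Fosb, an AP-1 subunit, was a riser at 388, 483 and 621, with 223 and 243 at 112h and 314 to 393 at 128h (log2 fold change 0.77, adjusted p = 1.54e-04, limma), and its lowest library of 120h lay below the highest of 128h. Atf3, a stress-induced repressor, fell by 0.59. Of 32 interferon-stimulated genes 6 fell and 1 rose, and of these Isg20, an antiviral exonuclease, read 321, 316 and 388 against 542 to 610 and fell by 0.75.

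Neutrophil markers were nearly level across the 3 time points. Of 14 neutrophil markers none rose and 1 fell (median -0.01), and none separated the 3 libraries from the 5. Their summed normalized count, in which S100a8 weighs heavily, was 710230 to 754886 at 120h and 668235 to 758921 in the neighbours. It was not set against that of other conditions. S100a8, a subunit of calprotectin, was at 163396 to 187580 at 120h against 152872 to 168092 (log2 fold change 0.19, adjusted p = 0.0859, limma). Ly6g, a marker of mature neutrophils, was close to the floor, with 12.6 to 23.0 at 120h and 14.4 to 34.2 in the neighbours.

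The medians of the granule lists were near 0. Of 9 primary granule genes 3 fell (33.3%, beside 11.2% of all genes) and 1 rose, none as a DEG (median -0.02). Elane, neutrophil elastase, was lower by 0.22 and Prtn3, proteinase 3, by 0.25 on the log2 scale. Neither fell with the GC smooth removed. Of 21 secondary and tertiary granule genes 3 fell and 1 rose, and the DEG was Adam8, a metalloprotease, at 8787, 8698 and 9340 against 12426 to 14327 (log2 fold change -0.58, at the fold threshold, adjusted p = 6.54e-09, limma). Markers of other cells hardly moved. None of 16 monocyte and macrophage markers tested rose or fell, and their summed level was 21227 to 22427 at 120h and 19799 to 22969 in the neighbours. Of 20 listed for that type 16 passed the filter on low values, and C1qa was at 0 in all 8 libraries. Erythroid, mast cell, eosinophil, megakaryocyte, lymphoid and fibroblast lists held 3 to 7 tested genes each, of which only the erythropoietin receptor gene Epor changed. It read 3.28, 7.68 and 4.20 at 120h and 6.90 to 17.5 in the neighbours, with overlap, and fell by 1.16, a call lost without GCSF-OHT 112h replicate 2 or 120h replicate 1 or 3 (adjusted p of 0.0551, 0.103 and 0.0668, limma). Bulk RNA cannot tell fewer cells of a type from less RNA per cell.

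Most regulators and receptors of the myeloid program did not pass the test. Of 38 myeloid transcription factors 7 fell and 2 rose (median -0.11), and with the GC smooth removed 4 fell and 4 rose. The DEG among them was Hoxa9, a homeobox factor of progenitors, at 1.09, 0 and 0 at 120h and 0.986 to 5.68 in the neighbours. These values lie around the floor and overlap, and the call (adjusted p = 0.0191, limma) was lost without GCSF-OHT 120h replicate 2 or 3 or 128h replicate 2 (adjusted p of 0.105, 0.0999 and 0.0542). Spi1, the gene of PU.1, read 9954, 9332 and 9110 at 120h and 8918 to 9814 in the neighbours, with overlap (log2 fold change 0.02, adjusted p = 0.78, limma). In these PU.1-null cells reads on Spi1 may come from the introduced fusion, and the counts cannot tell their source. Cebpe, a factor of late granulocyte maturation, lay below all 5 neighbours, at 1974 to 2289 against 2304 to 2747 (log2 fold change -0.24, adjusted p = 0.0458, limma), but at -0.01 (adjusted p = 0.919) with the GC smooth removed. Of 15 colony-stimulating factor and cytokine receptors 4 fell and 1 rose, with Epor as the DEG, and with the GC smooth removed 1 fell and 2 rose. The GCSF receptor Csf3r read 10729, 9498 and 10050 at 120h and 10185 to 11521 in the neighbours, and the groups overlapped (log2 fold change -0.09, adjusted p = 0.264, limma).

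Of 16 S100 and annexin genes 6 fell (37.5%, beside 11.2% of all genes) and 1 rose. Anxa2, annexin A2, a membrane-binding protein, moved most of these, from 17639 to 18990 in the neighbours to 11978, 12669 and 13303 at 120h (log2 fold change -0.54, adjusted p = 5.22e-10, limma). Of 20 p53 targets 5 rose and 3 fell. The cell cycle inhibitor Cdkn1a was among those that fell, with 10963, 10398 and 10573 at 120h and 12421 to 13962 in the neighbours (log2 fold change -0.31, adjusted p = 1.11e-04, limma), without overlap. Of 33 NRF2 and glutathione genes 9 fell and 5 rose, and of 17 BCL2 family genes 3 fell and 1 rose. NADPH oxidase subunits (8), chemokine receptors (16) and chemokines (19) held 0 to 2 genes that rose and 1 or 2 that fell.

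Other genes named by their size of change were mostly surface, adhesion and regulatory genes. Sdc3, the heparan sulfate proteoglycan syndecan 3, read 1493, 1678 and 1784 at 120h and 2839 to 3119 in the neighbours, a fall of 0.88 (adjusted p = 2.37e-07, limma). Selenbp1, a selenium-binding methanethiol oxidase, read 11518, 12634 and 14054 against 19875 to 23061 and fell by 0.78. Atp7b, the copper-exporting ATPase, fell by 1.03, Pkp2, the desmosomal plakophilin 2, by 0.93, the homeobox genes Pbx4 and Pou6f1 by 0.86 and 0.82 and Adamtsl5 by 0.78. The absence of overlap for these genes, as for Dctd, Dkc1, Gnl3, Pola1, Mvd, Aldoc, Lars2, Hspa1b and others named by size, was required by the rule that chose them. Among the rises were Serpinb9e (0.89), a serpin, Gpr82 (0.89), an orphan receptor, Dus4l (0.80), a tRNA dihydrouridine synthase, and the zinc finger genes Zfp960 (0.87) and Znf41-ps (0.73), the last a pseudogene whose reads may belong to relatives. Once the GC smooth was removed, the log2 fold change of Gpr82 was 0.47 (adjusted p = 0.28, limma), and without GCSF-OHT 120h replicate 2 or 3 its adjusted p was 0.0515 or 0.0531.

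**Figure D3:**
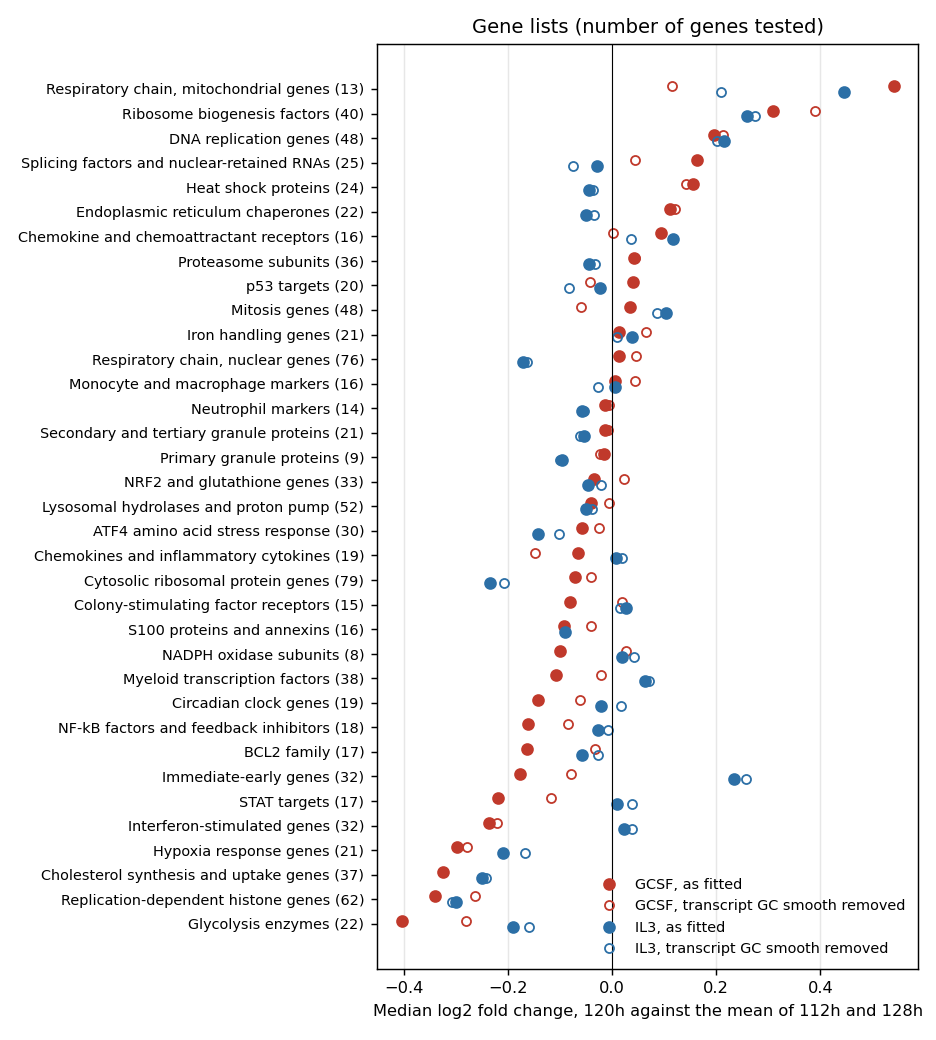
Median log2 fold change of 120h against the mean of 112h and 128h (horizontal axis) for each gene list with 8 or more genes tested (vertical axis, number in brackets), in GCSF (red) and IL3 (blue), with open circles after the transcript GC smooth was removed. Ribosome biogenesis and mitochondrially encoded genes lie to the right in both conditions (0.31 and 0.54 in GCSF), and cholesterol and glycolysis genes to the left (-0.33 and -0.40 in GCSF).

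The deviation of 120h went with the base composition of the transcripts, as it did at several other time points. Across 10440 genes with a mean of at least 50, Spearman's rho between transcript GC content and the log2 fold change was -0.63 in GCSF and -0.23 in IL3. Genes are not independent replicates, and rho is given as a description. Over 10614 genes at each GCSF time point it was -0.62 at 120h, -0.58 at 40h, 0.58 at 48h, -0.53 at 56h and 0.58 at 160h, where the libraries carry the common prefix and share none with the 120h contrast. At 112h and 128h, whose contrasts share libraries with that of 120h, it was 0.57 and 0.54. With these genes divided by GC content into 10 groups of equal size, the median log2 fold change went from 0.23 in the lowest group to -0.21 in the highest. DEGs with a mean of at least 50 had a median GC content of 41.4% when higher and 55.8% when lower, against 50.5% for all such genes. With a smooth of GC content removed from each library before the fit, ribosome biogenesis had 36 of 40 genes that rose, replication 29 of 48, cholesterol 26 of 37 that fell, glycolysis 12 of 22 that fell with 1 that rose, and hypoxia 11 of 21 that fell. Splicing factors, with a low GC content (median 44.6%), went from 13 that rose and 2 that fell of 25 to 5 and 5. DEGs went from 2.04% to 1.24% of the tested genes, and 50.8% of the 356 were still called (34.5% of those with a mean of at least 50). Of 64 DEGs picked by the naming rule, 29 were no longer called, 19 of them with an adjusted p that still passed (limma). Among these were Pola1 (0.47), Ccne2 (0.51), Mvd (-0.58, just under the threshold), Hk1 (-0.55), Car9 (-0.56), mt-Nd4 (0.24) and mt-Atp6 (0.44), with the log2 fold change that was left in brackets. Whether composition, the library prefix or the hour moved these genes was not tested, and the prefix and the hour cannot be told apart.

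**Figure D4:**
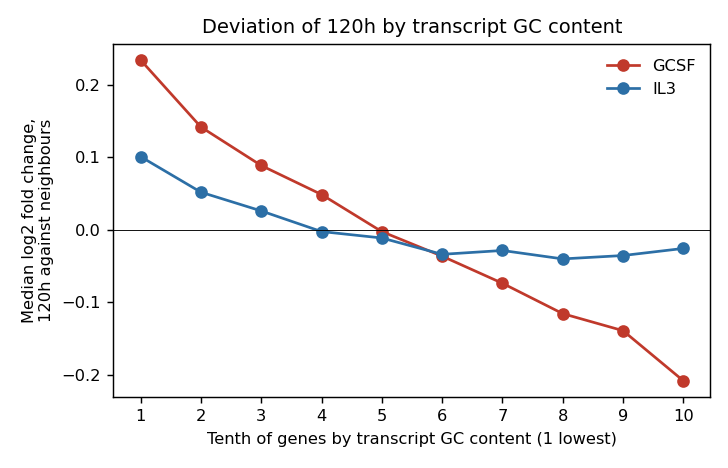
Median log2 fold change of 120h against its neighbours (vertical axis) in 10 groups of equal size of 10440 genes ordered by transcript GC content (horizontal axis, 1 the lowest), in GCSF (red) and IL3 (blue). The GCSF line runs down from 0.23 to -0.21, and the IL3 line from 0.10 to -0.03.

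IL3-OHT 120h gave the same contrast from libraries that the GCSF contrast does not use, under the same library prefix. In IL3, 301 genes (1.73%) were DEGs, with 0.913% of the tested genes higher and 0.815% lower. By p alone 7.64% rose and 8.06% fell. Growth and metabolic lists moved in the same direction there. Ribosome biogenesis had 27 of 40 genes that rose and none that fell (median 0.26), DNA replication 24 of 48 with 1 that fell (0.22), cholesterol 21 of 37 that fell and 1 that rose (-0.25), glycolysis 9 of 22 that fell and none that rose (-0.19), and hypoxia 7 of 21 that fell and 1 that rose (-0.21). Under upper-quartile scaling only 2 glycolysis genes fell in IL3, and 64.5% of the DEGs there were higher, against 52.8% under the reported scaling. Mitosis genes, nearly level in GCSF, had 15 of 48 that rose in IL3 and none that fell. Pearson's r between the fold changes in GCSF and IL3 was 0.43 across 10440 genes. The fold changes of GCSF-OHT 120h had a higher r with those of IL3-OHT 48h (0.54) and 72h (0.51), each against its own neighbours. The libraries of those contrasts carry the common prefix. At the other IL3-OHT time points fitted r was negative, from -0.53 at 160h to -0.28 at 128h. The differences between these values of r were not tested.

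Few single DEGs were called in both conditions, although few differed between them by the interaction. Of the genes higher in GCSF, 73.2% had the same sign in IL3 and 15 were also DEGs there (9.55% of the GCSF list and 9.43% of the IL3 list). Of the lower ones 76.4% had the same sign and 7 were also DEGs (3.52% and 4.93%). The interaction, described next, had an adjusted p under 0.05 (limma) for 15 of the higher and 29 of the lower GCSF DEGs. Lars2 was a DEG in both conditions, with 5242, 4478 and 4189 in IL3 at 120h, 9833 to 13153 at 112h and 7221 to 9354 at 128h (log2 fold change -1.02, adjusted p = 2.98e-04, limma). Dctd and mt-Nd4 rose there by 0.90 and 0.62.

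The difference between the deviations in GCSF and IL3 was tested as an interaction, which called 0.586% of the genes, 32 (0.184%) with the deviation higher in GCSF and 70 (0.402%) lower (25 and 119 under upper-quartile scaling). Without IL3-OHT 120h replicate 2 there were 58 such genes, and without IL3-OHT 128h replicate 3 there were 63. By the p threshold alone 378 genes (2.17%) were higher and 373 (2.14%) lower, and the differences gathered in some lists. Ribosomal protein genes fell in IL3 at 120h, 70 of 79 with none that rose (median -0.24), and 16 had a deviation that was higher in GCSF by the interaction. The nuclear respiratory chain showed the same, with 39 of 76 that fell in IL3 and 14 with a significant interaction. The median of immediate-early genes was -0.18 in GCSF and 0.23 in IL3, where 11 of 32 rose and 2 fell. By the interaction 9 had a deviation significantly lower in GCSF. With the GC smooth removed, 4 fell and 3 rose in GCSF (median -0.08), and 13 rose and 2 fell in IL3 (0.26). Fosb in IL3 read 1169, 1452 and 1340 at 120h and 341 to 490 in its neighbours, a log2 fold change of 1.70 against 0.77 in GCSF (interaction -0.93, adjusted p = 0.00794, limma). Gnl3 rose by 0.21 in IL3, and its deviation was higher in GCSF by 0.58 (adjusted p = 5.34e-04, limma).

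Chaperones also differed between the conditions. Of heat shock proteins, 2 of 24 rose and 4 fell in IL3 (median -0.04), and 5 had a higher and 1 a lower deviation in GCSF. Hspa1b was the lower one, with an interaction of -0.70 (adjusted p = 0.0182, limma), while that of Hspd1 was 0.38 (adjusted p = 0.00734, limma). Of endoplasmic reticulum chaperones, 3 of 22 rose and 5 fell in IL3. Calr, calreticulin, rose by 0.12 in GCSF and fell by 0.18 in IL3 (interaction 0.30, adjusted p = 9.71e-05, limma).

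**Figure D5:**
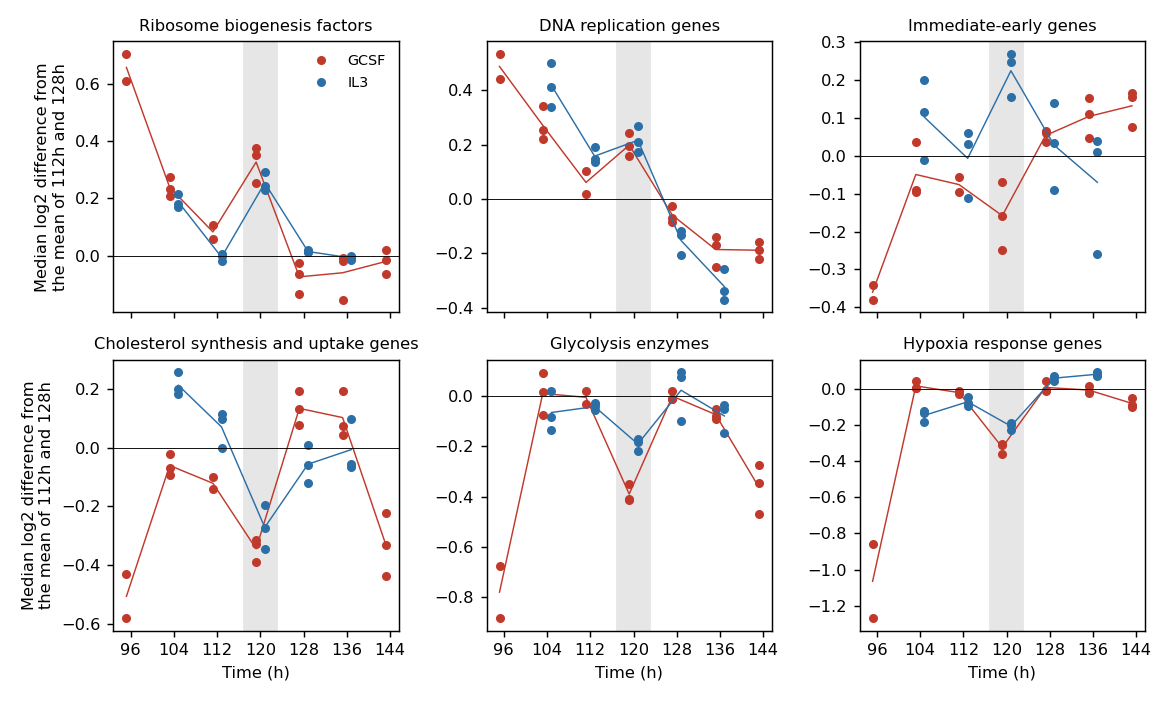
Median log2 difference of each library from the mean of 112h and 128h of its own condition (vertical axes) over 6 gene lists, from 96h to 144h (horizontal axes, hours), in GCSF (red) and IL3 (blue). Each point is 1 library, lines join group means and 120h is shaded. At 120h the GCSF libraries lie at 0.26 to 0.38 for ribosome biogenesis and at -0.41 to -0.35 for glycolysis.

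The lists that moved at 120h also moved at other time points whose libraries carry the common prefix and are not used in the 120h contrast. At 96h, 8 h after the addition of fresh OHT, the median of ribosome biogenesis genes against the neighbours at 88h and 104h was 0.39, that of glycolysis -0.76, of hypoxia genes -0.997 and of cholesterol genes -0.46. At 72h, 32 h after the addition at 40h and so placed like 120h, these medians were 0.35, -0.42, -0.76 and -0.26. At 144h, cholesterol genes (-0.32) and glycolysis (-0.18) were low again, but ribosome biogenesis was at 0.01. Over the 11 GCSF time points whose contrasts share no library with that of 120h, Pearson's r with the fold changes of 120h was taken across 10440 genes. It was positive at 96h (0.64), 40h (0.47), 72h (0.44), 144h (0.30), 56h (0.23) and 152h (0.05). At 88h (-0.59), 160h (-0.57), 48h (-0.35), 64h (-0.30) and 80h (-0.255) it was negative. The contrasts at 88h and 96h share libraries with one another. Within such groups of GC content r was 0.29 at 40h, -0.10 at 48h, 0.50 at 72h, 0.62 at 96h and 0.35 at 144h.

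Other medians against the neighbours differed between these time points. Heat shock proteins had a median of 0.15 at 120h, 0.02 at 72h and 0.01 at 96h, but against the midpoint of 112h and 128h the libraries of 96h, at 0.17 and 0.19, lay within the 0.15 to 0.21 of 120h. Lars2 was low at 72h as well (-0.99) but high at 96h (0.69), and the mitochondrially encoded set stood at 0.07 and 0.40 there. Against the midpoint of 112h and 128h that set was at 0.555 and 0.575 at 96h and at 0.46 to 0.66 at 120h. These differences between time points were not tested.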

How the data were processed

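PolyA RNA of PUER cells was sequenced in paired ends, and whether strand was used in counting is not given in the sources used here. By the study's methods and the submitters' processing notes, reads were quantified with Salmon by selective alignment to GRCm38. The deposited values, for 36255 genes in 165 libraries, are a normalized signal that the authors made from the counts by dividing each library by the size factor DESeq2 gave it. How transcripts were brought to genes is not given in the sources used here. Whole reads were recovered, since 100% of the nonzero values were whole multiples of a library's smallest step (largest relative deviation 9.66e-15). The floor is the normalized count of 3 reads. Depth ran from 14600246 to 33147945 reads on genes.

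The main test was limma 3.58.1 in R 4.3.3, with a mean for each condition at each time point and moderated variances that follow the mean (trend), on log2 of the normalized count + 1. It used 159 libraries, without those of IL3-OHT at 96h and 144h, which the study left out too, and took the normalized values as deposited. DESeq2, the test of the study, was run on the recovered reads as an alternative. The 17414 genes that reached a normalized count of 5 in any library were tested, with Benjamini-Hochberg adjustment per contrast. The gene lists and the time point were chosen with earlier results of these data known. Genes were named when they were among the 12 largest rises or falls with a mean of at least 50, DEGs against both neighbours alone and no overlap between libraries, leaving out unnamed models (a), when they were up to 4 DEGs of a gene list or else its 2 highest genes (b), and when they were among the 12 largest interactions that were also DEGs in GCSF (c). Utp20, Tsr1, Ltv1, Hmgcs1, Sqle, Gapdh, Hspa5, C1qa, Ly6g, Spi1, Cebpe, Csf3r, Anxa2, Cdkn1a and the genes of promoter and flagged lists outside this rule were chosen after their values were seen.

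Alternatives were pseudocounts of 0.5 and 5, no filter, a mean of at least 10, upper-quartile scaling, other sets of libraries, the replicate number as a block, each library left out in turn, and edgeR 4.0.16 (quasi-likelihood) and DESeq2 1.42.0 (Wald) on the recovered reads. Further alternatives, added after the values had been seen, were a mean of at least 50 over the libraries compared and the removal of a smooth (6 degrees of freedom) of transcript GC content or of log2 transcript length from each library, for which 98.6% of the tested genes had a value. The fit was tested on simulated data with known changes, where low counts in the libraries compared gave most of the false calls. DEGs with a mean normalized count under 50 are therefore less certain. Correlations, permutation tests and plots were made in Python 3.11.15 with pandas 2.3.3, numpy 2.4.6, scipy 1.17.1 and matplotlib 3.10.9. Promoters are those of RefSeq on GRCm38.p6 outside chromosome 18, 1 per gene, searched on both strands. Of the libraries of 112h, 120h and 128h, no pair within a condition was alike within counting error (chi-square per gene of 2.22 to 31.4).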

Additional observations from a re-analysis of the deposited data

Results flagged for a closer look

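The deviation of 120h from its neighbours differed between GCSF and IL3, by limma's interaction term, in 32 genes that were higher in GCSF and 70 that were lower. Values below are the difference of the 2 deviations on the log2 scale, GCSF minus IL3.

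For genes that were also DEGs in GCSF and averaged 50 normalized counts or more, the difference was -0.93 for Fosb, the AP-1 subunit, which rose in both conditions and further in IL3. It was -0.70 for Hspa1b, the inducible HSP70, and -0.65 for Sdc3, syndecan 3. Zfp385a, an RNA-binding zinc finger protein, differed by -0.81, and it read 236, 175.4 and 193 at GCSF-OHT 120h against 304 to 352 in the neighbours. Adamtsl5 differed by -0.77, Avil, an actin-binding villin relative, by -0.83, Ggn by -0.86 and Tas1r3, a taste receptor subunit, by -1.04. Lgals3bp, a secreted galectin-binding glycoprotein, differed by -0.75, but its GCSF neighbours were spread from 501 to 1346.

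The largest differences lay at a few reads. Vdr, the vitamin D receptor, differed by -2.08, a value that depends on the pseudocount and gives no fold change. It had no read in the 3 libraries of GCSF-OHT 120h and 1.10 to 6.12 normalized counts in the neighbours, and in IL3 it read 15.6, 20.4 and 17.9 at 120h and 13.6 to 22 around it. Akap5, a kinase anchor, differed by 1.94, with 19.7, 11.5 and 12.6 at GCSF-OHT 120h against 2.06 to 4.93. Gm27029 differed by -4.33, with 12.0, 0 and 2.80 against 22.7 to 29.6, and its IL3 libraries ran from 0 to 32.0. At or near the floor of 3 reads were Gm7984 (3.40), Ankrd2 (-3.14), Tmem184a (-3.02), Gtsf1l (-2.74), Gm4705 (2.68), Gm9245 (-2.54), Prl3a1 (-2.50), Gm43310 (2.35) and Fscn2 (-2.20), for which the fitted value is no fold change either.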

How the results depend on the processing

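No named gene changed sign. Noc3l, Mvk, Hk1, Tfrc, Adam8, Atf3 and Car9 lay near the fold threshold and fell under it without 1 or more of the libraries, with adjusted p still under 0.05 (limma). The lowest size was that of Atf3 without GCSF-OHT 120h replicate 2, -0.47, and Car9 was at -0.57 without GCSF-OHT 120h replicate 1. Numbers of DEGs are given here as a percent of the 17414 genes tested in the reported fit. DEGs at GCSF-OHT 120h, 2.04%, were 1.24% with the GC smooth removed and 0.856% among genes with a mean of at least 50. They ran from 1.59% to 2.26% with 1 library left out, and without GCSF-OHT 120h replicate 2 the 277 DEGs held 53.1% of the 356. edgeR gave 270 genes and DESeq2 238. Genes called against both neighbours, 0.614%, became 0.287% with the GC smooth removed, and 0.287% to 0.821% with 1 library left out. DEGs in IL3, 1.73%, became 1.07% when only libraries of 112h to 128h were fitted and 0.534% at a mean of at least 50 (1.3% to 2.24% with 1 left out), and interaction genes, 0.586%, became 0.144% in the smaller fit (0.333% to 0.833% with 1 left out). DEGs between 128h and 112h, 0.155%, became 0.465% without a filter, 0.0402% in the smaller fit, 0.0689% at a mean of at least 50, 0.241% with the GC smooth removed and 0.0747% by edgeR (0.0517% to 0.178% with 1 left out). The rank of 120h, 2, was 3 with a pseudocount of 5, upper-quartile scaling, the replicate block or edgeR, 4 with a mean of at least 10 or 50 or with DESeq2, 5 with the GC smooth removed, and 2 to 4 with 1 library left out. The smaller shares at a higher mean come from fewer genes tested. The cause of the others was not tested.

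Same-numbered libraries of different time points did not deviate together (r of -0.27 to 0.21, 2 of 16 pairs over 0.1), so replicate numbers share only a number. The replicate block gave 342 DEGs at GCSF-OHT 120h (339 of them among the 356), 306 in IL3, 96 interaction genes, 27 between 128h and 112h and 0.574% called against both neighbours. At 15290565 to 22730114 reads, changes of genes near 3 reads are uncertain, and several such calls were lost with 1 library left out.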

Other observations

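Genes whose names start with Zfp, Znf, Zscan or Zkscan are a group chosen after their values were seen. Of 394 tested, 76 rose (19.3%) and 38 fell (9.64%) at GCSF-OHT 120h, with a median log2 fold change of 0.09. Of all genes 11% rose and 11.2% fell, and of those with a mean of at least 50, 17.2% rose and 17.5% fell. In IL3, 53 rose and 10 fell. Their transcripts had a median GC content of 45.8%, and with the GC smooth removed 31 rose and 15 fell in GCSF, where 1300 of all genes rose and 1208 fell. Many belong to clusters of near-identical copies, so reads of single members are uncertain.

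Nr1d2, the clock repressor REV-ERB beta, read 51.4, 43.5 and 37.8 at 120h and 15.8 to 38.3 in the neighbours, a rise of 0.80 on the log2 scale (adjusted p = 2.02e-04, limma) with overlap. Of 19 clock genes, 2 rose and 3 fell. Aldh1l2, a mitochondrial folate enzyme that ATF4 induces, read 227, 332 and 339 against 472 to 608, and fell by 0.84 (adjusted p = 0.00203, limma), while the 30 genes of that response gave 5 that rose and 9 that fell. Of 36 proteasome subunits 8 rose and 2 fell, and of 52 lysosomal genes 6 rose and 12 fell.

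The share of reads on histone genes was 0.0460% to 0.0498% at GCSF-OHT 120h and 0.0507% to 0.0599% in the neighbours (exact two-sided permutation test, p = 0.0357, adjusted p = 0.0857 over 12 tests). Depth did not separate the groups (p = 0.143 in the same exact test), with 15290565 to 19648266 reads on genes at 120h and 15707389 to 22730114 in the neighbours.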
